A study of Mus musculus with 16 samples.

Results

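The p53 target genes described here are 10 genes chosen by symbol. They are Trp53, which encodes the transcription factor p53, and 9 of its targets. Of the 10 genes, 8 had a probe set in the deposited data carrying their symbol, each exactly 1, out of 22206 probe sets tested and 19505 named genes. Trp53 and Bax, which encodes a pore-forming protein of the mitochondrial death pathway, had no probe set named here and were not analysed here. The choice uses symbols, not measured values, but it was made with earlier results of these data known.

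Expression was measured on arrays in BU.MPT, a mouse proximal tubular cell line, in 4 groups of 4 samples each. H/R cells (hypoxia/reperfusion) spent 3 h in about 1% oxygen, in medium without glucose or serum, followed by 1 h in normal culture. H/R+B12 cells went through the same steps with 0.3 µM cyanocobalamin, a stable form of vitamin B12. Control cells were kept throughout in 21% oxygen, with 4.5 g/L glucose and 10% serum in the medium, and control+B12 cells had the same conditions with 0.3 µM cyanocobalamin. All 16 samples were grown at 39 °C without interferon-γ. Free-text descriptions of replicates 2 to 4 of both B12 groups carry other numbers after the letter B, while every title reads B12, and the titles were followed.

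BU.MPT cells carry, as background, a temperature-sensitive large T antigen of the virus SV40 behind an interferon-responsive promoter. Large T binds and blocks p53, and growth in heat without interferon is the setting used to switch it off. The level of large T was not analysed here, and it bears on every p53 target in this line, control cells included. Oxygen, glucose and serum changed together in H/R, so their parts in any difference cannot be told apart. In bulk RNA, fewer cells of a kind and less RNA per cell cannot be told apart either.

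p53 is held low in resting cells by the ubiquitin ligase encoded by Mdm2, which is itself a p53 target, and rises after DNA damage, oxygen lack and other stress. Its targets fall by role into genes that stop the cell cycle or growth, genes that feed back on p53, and genes that promote cell death. Several of them also respond to other stress regulators, such as ATF4, FoxO and HIF. In the proximal tubule p53 has been studied mainly in injury after loss of blood flow.

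Values are log2 signal from robust multi-array averaging (RMA), so a difference of 1 is a doubling. The labels do not say whether replicates were separate cultures, and p-values then measure only the spread between these samples, which may be technical. Array medians over the tested probe sets ran from 5.21 to 5.37, and those of the 5222 negative control features, which should bind no transcript, from 5.72 to 6.23. Of 7 measured proximal tubule markers 1, the water channel gene Aqp1, was above the negative control medians, while Lrp2, Cubn, Slc34a1, Slc5a2, Slc22a6 and Anpep were below them. Of 6 general kidney epithelium markers 4 were above (Krt8, Krt18, Cdh16 and Pax2). Of 19 markers of distal nephron, fibroblast, endothelium, leukocyte and podocyte 3 were above (Scnn1a, Nphs1 and Podxl), and 1 of these, Scnn1a, was lower in H/R (-1.15 ± 0.29 SE). Among the kidney markers above background, Aqp1 (-0.80) and Pax2 (-0.66) were also lower in H/R and Krt18 (0.82) higher, and their part in the results was not tested. Arrays of 1 group correlated across probe sets at 0.990 to 0.994.

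The promoter search shows which of the genes hold exact matches to part of the p53 binding sequence near their start. RefSeq start regions (build GRCm38.p6, 250 bases before to 50 after each start) were at hand for 7 of the 8 genes, all but Pmaip1, and were searched on both strands. The p53 half-site consensus, the 10-base unit of which p53 binds a pair, was matched in 5 of the 7 genes, Cdkn1a, Gadd45a, Sesn1, Mdm2 and Ccng1, and in none of the start regions of Phlda3 and Bbc3. Of 27025 genes with such a region 9.55% held a match, and of 32851 regions 8.36%. The Phlda3 region ends in gaacatgt, which fits the first part of the consensus, and the bases that follow lie outside the window. The 4 regions below are those of 3 of the genes whose expression changed with H/R and of Ccng1, which holds a match and did not pass the test. The regions of Phlda3, which changed and holds no match, and Gadd45a, which holds a match and did not pass, are not printed. Capitals mark the half-site matches.
Cdkn1a, first of its listed starts, chr17:29090729-29091028, plus strand: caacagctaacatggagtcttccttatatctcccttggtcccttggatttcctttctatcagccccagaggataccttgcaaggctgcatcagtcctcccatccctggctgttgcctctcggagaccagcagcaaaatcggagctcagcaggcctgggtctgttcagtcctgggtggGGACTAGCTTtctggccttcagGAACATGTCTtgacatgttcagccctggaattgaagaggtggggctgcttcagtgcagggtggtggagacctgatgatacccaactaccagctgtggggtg
Sesn1, the second of its listed starts, chr10:41887189-41887488, plus strand: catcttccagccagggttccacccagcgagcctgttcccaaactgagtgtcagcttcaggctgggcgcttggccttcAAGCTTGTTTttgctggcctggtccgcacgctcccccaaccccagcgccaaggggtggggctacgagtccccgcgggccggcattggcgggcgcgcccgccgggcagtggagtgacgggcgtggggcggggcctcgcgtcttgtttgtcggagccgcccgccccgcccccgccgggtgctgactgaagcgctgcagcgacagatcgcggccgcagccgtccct
Mdm2, chr10:117710709-117711008, minus strand: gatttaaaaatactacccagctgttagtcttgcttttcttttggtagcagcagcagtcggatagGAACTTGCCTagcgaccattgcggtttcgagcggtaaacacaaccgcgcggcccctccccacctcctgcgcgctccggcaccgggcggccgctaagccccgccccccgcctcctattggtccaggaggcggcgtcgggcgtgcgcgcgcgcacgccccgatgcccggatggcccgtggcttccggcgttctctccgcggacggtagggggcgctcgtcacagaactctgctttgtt
Ccng1, chr11:40755237-40755536, minus strand: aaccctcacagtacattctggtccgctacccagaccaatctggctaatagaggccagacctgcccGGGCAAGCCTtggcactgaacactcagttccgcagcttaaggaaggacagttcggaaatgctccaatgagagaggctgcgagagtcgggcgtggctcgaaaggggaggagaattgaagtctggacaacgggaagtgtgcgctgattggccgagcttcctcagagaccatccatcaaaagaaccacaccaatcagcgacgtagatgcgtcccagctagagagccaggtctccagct

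At the first of its listed starts Cdkn1a held a pair of half-sites, beginning 73 and 51 bases before that start and 12 bases apart. Only exact matches to the consensus were counted. Directly after the second half-site the region reads tgacatgttc, which departs from the consensus only at its first base and was not counted. The second listed start of Cdkn1a held 0 matches. A pair of exact matches with at most 13 bases between them was found in 24 of the 32851 regions (0.0731%), and in no other region of these genes. The single matches of Mdm2, Ccng1 and Sesn1 began 186, 185 and 173 bases before the start, and that of Gadd45a 40 bases before it. The HIF core ACGTG was found in 1 of the 7 genes (Bbc3, in overlapping copies on both strands) and in 21.8% of all genes. The heat shock core GAANNTTC was in 1 of 7 (Sesn1) and 9.04% of all genes. The AP-1 motif TGANTCA (8.97% of all genes), the ATF4 core TGATGNAA (4.51%) and the CArG box of serum response factor (1.81%) were in 0 of 7. A match is only a run of letters, binding was not measured, and known p53 sites of several of these genes lie outside such windows.

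H/R split the p53 targets. Without B12, Cdkn1a, Phlda3 and Mdm2 rose, Sesn1 fell, and Gadd45a, Ccng1, Pmaip1 and Bbc3 did not pass the test (limma, adjusted p under 0.05 over all probe sets). That is 4 of 8 measured genes called, 3 higher and 1 lower, against a background of 17.6% of all probe sets called, 8.11% higher and 9.54% lower. With B12 in both groups 3 of 8 were called, Cdkn1a and Phlda3 higher and Sesn1 lower, where the background was 18.7%, 9.04% higher and 9.61% lower. These 2 comparisons share no samples. The median log2 difference of the 8 genes was 0.14 without B12 and 0.06 with it, beside -0.02 and -0.04 over all probe sets. The 4 H/R arrays lay wholly beyond the 4 control arrays in 4 of the 8 genes (20.9% of all probe sets), and the H/R+B12 arrays beyond the control+B12 arrays in 4 of the 8 (21.5%).

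**Figure D1:**
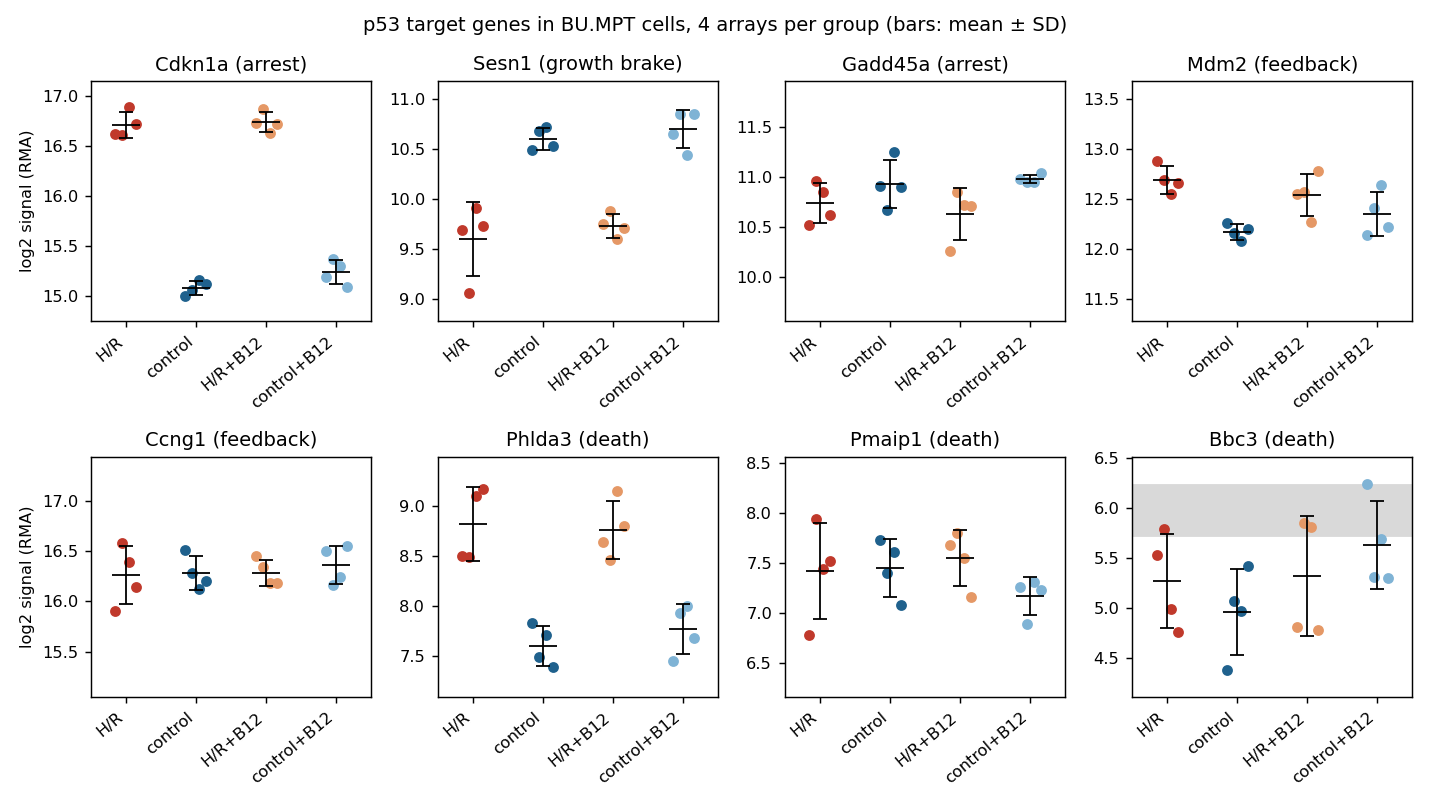
Log2 signal of the 8 measured p53 target genes (vertical axis, RMA, each panel with its own level) in each of the 16 arrays, by group, with the mean ± SD as black bars (n = 4). H/R and H/R+B12 arrays lie above all control arrays for Cdkn1a and Phlda3 and below all of them for Sesn1, and the grey band for Bbc3 spans the negative control medians, 5.72 to 6.23.

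Of the genes that stop the cell cycle or growth, Cdkn1a rose, Sesn1 fell and Gadd45a did not pass. Cdkn1a encodes p21, the inhibitor of cyclin-dependent kinases through which p53 halts the cell before DNA replication. Its log2 signal was 16.62, 16.61, 16.89 and 16.72 in H/R cells, against 15, 15.06, 15.16 and 15.12 in control cells. With B12 it was 16.73, 16.87, 16.63 and 16.72 in H/R+B12 cells, against 15.19, 15.37, 15.30 and 15.09 in control+B12 cells. All 8 arrays after H/R were above all 8 without it, with a gap many times the spread within a group. The difference was 1.63 ± 0.12 without B12 (SE, n = 4 against 4; 3.09-fold, limma adjusted p = 1.9e-07) and 1.5 ± 0.12 with B12 (2.83-fold, limma adjusted p = 3.23e-07). Among 22206 probe sets it ranked 136 from the highest by size and 29 by p-value without B12. In order, Cdkn1a averaged 16.74 ± 0.10 in H/R+B12, 16.71 ± 0.13 in H/R, 15.24 ± 0.12 in control+B12 and 15.08 ± 0.07 in control cells (SD, n = 4 each), and neighbours that differ only in B12 overlapped.

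Sesn1 encodes sestrin 1, which restrains the growth kinase complex mTORC1 and limits oxidants. Its log2 signal was 9.69, 9.06, 9.91 and 9.73 in H/R cells, against 10.49, 10.68, 10.72 and 10.53 in control cells. In H/R+B12 cells it was 9.75, 9.88, 9.60 and 9.71, against 10.65, 10.85, 10.44 and 10.85 in control+B12 cells. All 8 arrays after H/R lay below all 8 without it, and the lowest was H/R replicate 2. Sesn1 fell by 1.01 ± 0.17 on the log2 scale without B12 (limma adjusted p = 0.000455) and by 0.96 ± 0.17 with B12 (limma adjusted p = 0.000657), or 2.01-fold and 1.95-fold.

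Gadd45a encodes a small stress protein that binds cell cycle and repair factors. Gadd45a signal was 10.52, 10.96, 10.85 and 10.62 in H/R cells, against 10.91, 10.67, 11.25 and 10.90 in control cells. In H/R+B12 cells it was 10.26, 10.85, 10.72 and 10.71, against 10.98, 10.95, 10.95 and 11.04 in control+B12 cells. The groups overlapped without B12, and with B12 every H/R+B12 array was below every control+B12 array. The differences, -0.20 ± 0.16 (limma adjusted p = 0.495) and -0.34 ± 0.16 (limma adjusted p = 0.165), did not pass. Averaged over both B12 states, a contrast added after the values were seen, Gadd45a differed by -0.27 ± 0.11 (95% interval -0.51 to -0.03, limma adjusted p = 0.0939), where 27.2% of all probe sets were called.

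**Figure D2:**
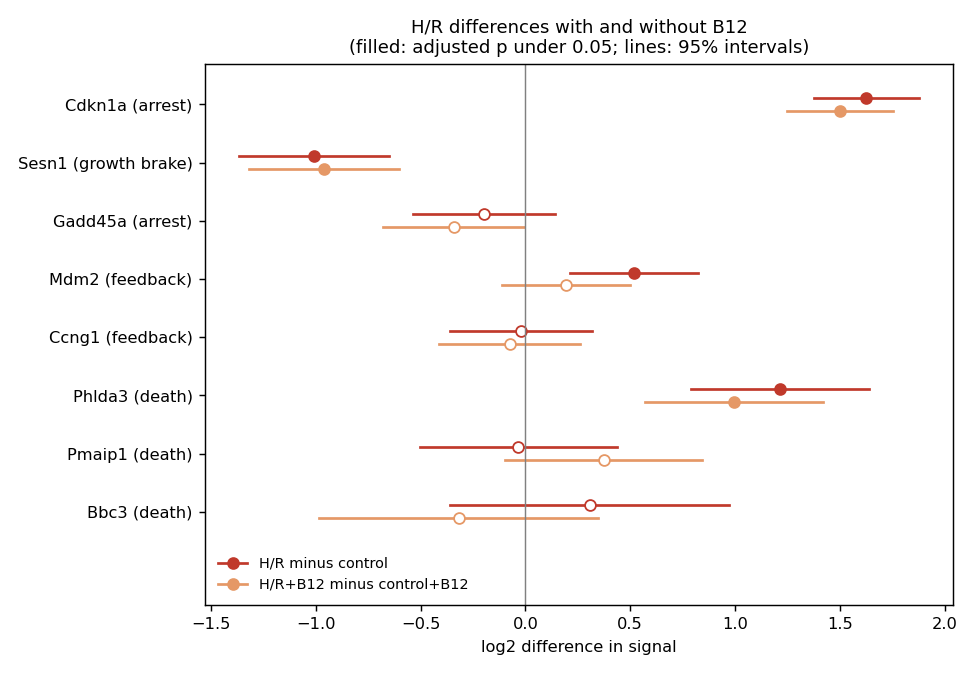
Log2 differences of the 8 genes for H/R minus control and H/R+B12 minus control+B12 (horizontal axis), with 95% intervals of the limma fit. Filled points passed an adjusted p of 0.05. Cdkn1a (1.63 and 1.5), Phlda3 (1.21 and 0.99) and Sesn1 (-1.01 and -0.96) passed in both, and Mdm2 passed without B12 (0.52).

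Of the feedback genes, Mdm2 moved little and Ccng1 did not pass in either comparison. Mdm2 signal was 12.88, 12.69, 12.55 and 12.66 in H/R cells, against 12.26, 12.16, 12.08 and 12.20 in control cells. With B12 it was 12.55, 12.57, 12.27 and 12.78 in H/R+B12 cells, against 12.14, 12.41, 12.64 and 12.22 in control+B12 cells. Without B12 the groups were apart, and with B12 they overlapped. Mdm2 rose by 0.52 ± 0.14 without B12 (1.43-fold, limma adjusted p = 0.0178), and this call was lost without control replicate 3 (0.49, limma adjusted p = 0.0513) or without H/R replicate 1 (0.46, limma adjusted p = 0.0604). With B12 the difference was 0.19 ± 0.14 (limma adjusted p = 0.428). The 2 values were not shown to differ, with an interaction of -0.33 ± 0.20 (95% interval -0.76 to 0.10, limma adjusted p = 0.987). Averaged over both B12 states Mdm2 differed by 0.36 ± 0.10 (limma adjusted p = 0.0139), with 4 of 8 H/R arrays above every control array.

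Ccng1 encodes cyclin G1, which brings the phosphatase PP2A to the Mdm2 protein. Ccng1 signal was 15.91, 16.58, 16.39 and 16.14 in H/R cells, against 16.51, 16.28, 16.12 and 16.20 in control cells. In H/R+B12 cells it was 16.45, 16.34, 16.18 and 16.18, against 16.50, 16.16, 16.24 and 16.55 in control+B12 cells. All 4 groups overlapped. The differences were -0.02 ± 0.16 (95% interval -0.36 to 0.32) and -0.08 ± 0.16 (95% interval -0.41 to 0.26). Averaged over both B12 states the 95% interval ran from -0.29 to 0.19, which does not reach the differences of Cdkn1a or Phlda3. Its signal was among the top 1% of probe sets (percentile 99.2), and that of Cdkn1a was nearly as bright (percentile 98.8). Whether signal this bright still follows the amount of RNA was not tested, which bears on the folds and intervals of both genes.

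Of the death genes 1 rose. Phlda3 encodes a membrane-binding protein that competes with the survival kinase Akt for its docking lipids. Its log2 signal was 8.50, 8.49, 9.10 and 9.17 in H/R cells, against 7.83, 7.49, 7.71 and 7.39 in control cells. In H/R+B12 cells it was 8.64, 8.46, 9.15 and 8.80, against 7.45, 7.93, 8 and 7.68 in control+B12 cells. All 8 arrays after H/R were above all 8 without it. Phlda3 rose by 1.21 ± 0.20 without B12 (2.32-fold, limma adjusted p = 0.000393) and by 0.99 ± 0.20 with B12 (1.99-fold, limma adjusted p = 0.00195).

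Pmaip1 and Bbc3 encode Noxa and Puma, BH3-only proteins that disable the guardians of the mitochondrial membrane. Pmaip1 signal was 6.78, 7.94, 7.44 and 7.52 in H/R cells, against 7.73, 7.40, 7.61 and 7.08 in control cells. With B12 it was 7.68, 7.80, 7.55 and 7.16 in H/R+B12 cells, against 7.26, 6.89, 7.31 and 7.23 in control+B12 cells. Groups overlapped in both comparisons, and the 4 H/R arrays alone spanned the values of all the other groups. The differences were -0.03 ± 0.22 (95% interval -0.51 to 0.44) and 0.37 ± 0.22 (95% interval -0.10 to 0.84, limma adjusted p = 0.297).

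Bbc3 could not be read as expressed. Bbc3 signal was 5.53, 5.79, 4.99 and 4.76 in H/R cells, against 4.38, 5.07, 4.97 and 5.42 in control cells. With B12 it was 4.81, 5.85, 5.81 and 4.78 in H/R+B12 cells, against 6.24, 5.31, 5.69 and 5.30 in control+B12 cells. In 15 of the 16 arrays it was below that array's own negative control median. The median of the tested probe sets was also below that of the negative controls on every array (5.21 to 5.37 against 5.72 to 6.23). Such a level is therefore not particular to Bbc3, whose mean was at percentile 50.3 of the tested probe sets. The differences of 0.31 ± 0.31 and -0.32 ± 0.31 did not pass (limma adjusted p = 0.609 and 0.57), and a change at a level under the background of the arrays was not detectable here.

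The wider set of p53 targets was split as well. The list of further targets and the lists below came from general knowledge, with earlier results of these data known. Their shares beside the background are therefore a description only, and this background was not matched for signal either. Of 37 further targets 34 were measured. After H/R without B12 8 rose and 7 fell (44.1% called, median 0.11), beside 17.6% of all probe sets called and a median of -0.02. With B12 9 rose and 6 fell (44.1% called, median 0.07), beside 18.7% of all probe sets and a median of -0.04. Among 13 further death genes 3 rose and 2 fell in each comparison. Fas, the death receptor, had the largest difference of these 34 in both (4.09 ± 0.20 and 4.22 ± 0.20). Tnfrsf10b, the mouse TRAIL death receptor, rose by 1.21 ± 0.18 and 1.22 ± 0.18. Ei24, a protein of the endoplasmic reticulum, fell by 0.76 ± 0.12 and 0.92 ± 0.12. Bid, which links death receptors to mitochondria, rose by 0.76 ± 0.14 without B12 (limma adjusted p = 0.00103) and was at 0.24 ± 0.14 with B12 (limma adjusted p = 0.298). Named after their values were seen, the other calls were Perp, a desmosome protein, at -0.53 ± 0.14 and -0.27 ± 0.14 (passing without B12), and Aen, a nuclease, at 0.35 ± 0.16 and 0.58 ± 0.16 (passing with B12). Pidd1, a platform for caspase-2, was at -0.16 ± 0.23 and -0.77 ± 0.23 and passed with B12.

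**Figure D3:**
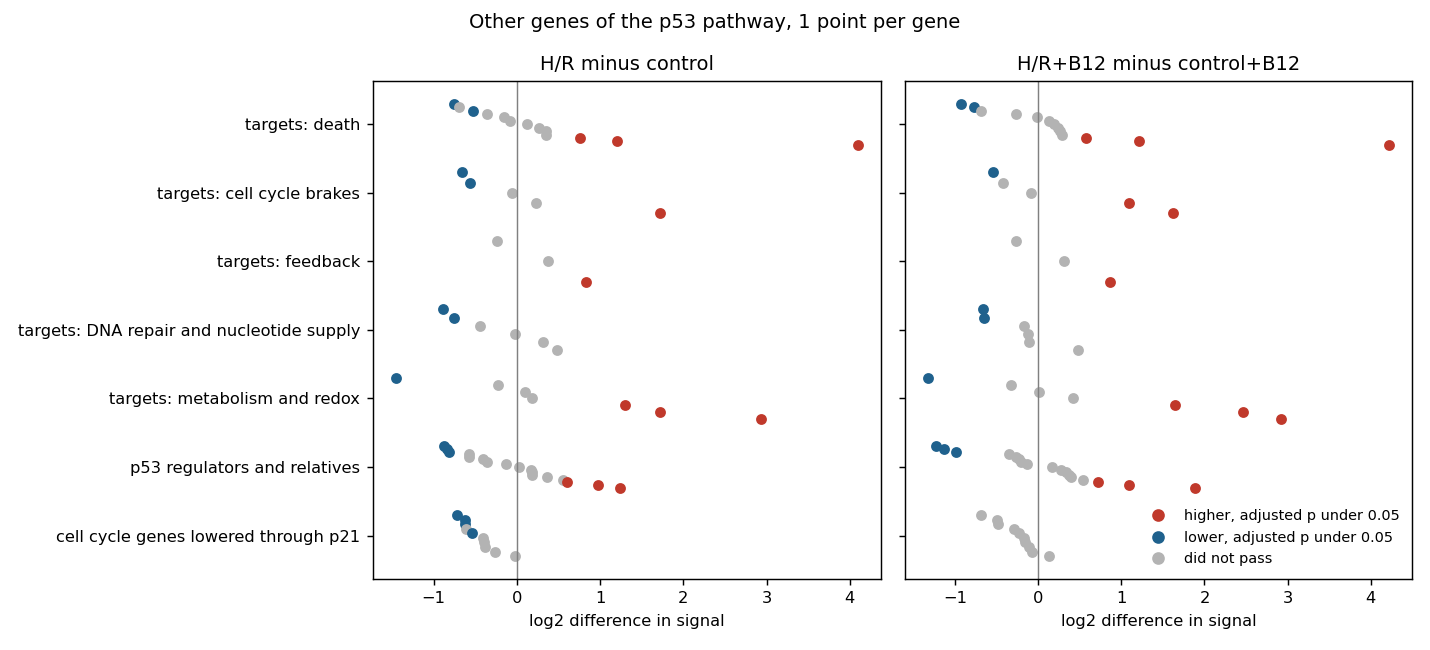
Log2 difference of each measured gene of the 7 pathway lists (1 point per gene, lists down the page) for H/R minus control on the left and H/R+B12 minus control+B12 on the right. Red points were higher and blue points lower at an adjusted p under 0.05. The targets lie on both sides of 0, with Fas at 4.09 and 4.22 the point furthest right, while the cell cycle genes on the left panel lie at or below 0.

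Targets that stop the cycle or act in metabolism had calls on both sides, while the 2 repair genes called were both lower. Of all probe sets 17.6% were called without B12 and 18.7% with it. Of 5 cell cycle brakes Plk3, a stress-activated kinase, rose by 1.72 ± 0.31 and 1.62 ± 0.31, from a level near the negative controls (below its own array's negative median in 6 of 16 arrays). Plk2, its relative, fell by 0.66 ± 0.16 and 0.54 ± 0.16. Gtse1, which escorts p53 out of the nucleus, fell by 0.56 ± 0.18 without B12 and was at -0.42 ± 0.18 with it (limma adjusted p = 0.131). Sfn, the 14-3-3 sigma gene, was at 0.23 ± 0.26 and 1.09 ± 0.26 (limma adjusted p = 0.00633 with B12), but below the negative control median in all 16 arrays. Of 3 feedback genes Rchy1, a ubiquitin ligase for p53, rose by 0.83 ± 0.13 and 0.86 ± 0.13. Ppm1d, the phosphatase that shuts p53 signalling down, was at 0.37 ± 0.17 and 0.32 ± 0.17, and Cop1, another ligase, at -0.23 ± 0.17 and -0.27 ± 0.17, and neither passed.

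Of 6 repair and nucleotide genes 2 fell and 0 rose in each comparison, where 9.54% and 9.61% of all probe sets were lower. Ddb2, which finds ultraviolet damage, fell by 0.89 ± 0.19 and 0.66 ± 0.19, and Rps27l, a ribosomal protein paralog, by 0.75 ± 0.16 and 0.65 ± 0.16. Ercc5 (0.48 ± 0.20 and 0.48 ± 0.20) and Polk (0.31 ± 0.14 and -0.17 ± 0.14) did not pass. Of 7 measured metabolic and other targets 3 rose and 1 fell in each (57.1% called), beside 17.6% and 18.7% of all probe sets. Epha2, an ephrin receptor, rose by 2.93 ± 0.18 and 2.92 ± 0.18. Ddit4, which encodes the mTORC1 inhibitor REDD1, rose by 1.72 ± 0.19 and 1.64 ± 0.19, and Ak1, an adenylate kinase, fell by 1.45 ± 0.13 and 1.33 ± 0.13.

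The sestrins moved in opposite directions. Sesn2 encodes sestrin 2, the paralog of sestrin 1, and is also an ATF4 target. Its log2 signal was 7.74, 7.58, 7.96 and 7.64 in H/R cells, against 6.31, 6.17, 7.31 and 5.93 in control cells, and 8.17, 8.63, 8.94 and 9.07 in H/R+B12 cells, against 6.68, 6.67, 6.28 and 5.30 in control+B12 cells. The groups were apart in both comparisons, and most arrays without H/R were near the negative control medians of 5.72 to 6.23 (1 of 16 arrays was below its own). Sesn2 rose by 1.30 ± 0.32 (limma adjusted p = 0.00816) without B12 and by 2.47 ± 0.32 (limma adjusted p = 3.96e-05) with it, where Sesn1 fell by 1.01 and 0.96.

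Genes that act on p53 were called on both sides as well. Of 17 regulators and relatives 3 rose and 3 fell in each comparison (35.3% called), beside 17.6% and 18.7% of all probe sets. Kat5, an acetyltransferase of p53, rose by 0.98 ± 0.13 and 1.09 ± 0.13, and Usp7, which removes ubiquitin from p53 and Mdm2, by 0.60 ± 0.13 and 0.72 ± 0.13. Hipk2, a kinase that directs p53 towards death genes, fell by 0.88 ± 0.14 and 1.14 ± 0.14. Atm, the kinase that signals DNA breaks to p53, fell by 0.82 ± 0.19 and 0.98 ± 0.19. Named after their values were seen, the others were Chek2, a kinase downstream of Atm, which fell by 0.83 ± 0.21 and 1.23 ± 0.21, and Ppp1r13l, an inhibitor of p53, which rose by 1.24 ± 0.29 and 1.89 ± 0.29. The mean signal of Ppp1r13l over the 16 arrays, 6.4, was near the negative control medians of 5.72 to 6.23.

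Cell cycle genes known to be lowered through p21 had negative medians in both comparisons. Of 10 measured 4 fell and 0 rose without B12 (median -0.47, where 9.54% of all probe sets were lower), and 0 passed in either direction with B12 (median -0.20, where 9.61% were lower). Mcm5, a subunit of the replication helicase, was at -0.54 ± 0.15 and -0.23 ± 0.15. The S phase transcription factor E2f1 was at -0.62 ± 0.19 and -0.11 ± 0.19, the mitotic kinase Plk1 at -0.63 ± 0.19 and -0.48 ± 0.19, and Aurka at -0.72 ± 0.24 and -0.49 ± 0.24. The interaction called 0 of the 10, so the responses were not shown to differ with B12.

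No p53 target passed the test for an effect of B12. In H/R+B12 against H/R, in control+B12 against control and in the interaction limma called 0 of the 8 genes, 0 of the 34 further targets and 0 of all 22206 probe sets, a background of 0%. Before adjustment limma counted 1010, 1280 and 1071 probe sets at a p under 0.05. Of the 8 genes 1 was among them, Bbc3 in control+B12 against control (0.67 ± 0.31, limma adjusted p = 0.855), at a level near or below the negative controls. The groups overlapped in all 8 genes in both B12 comparisons, where 2.87% of all probe sets did not overlap in each.

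**Figure D4:**
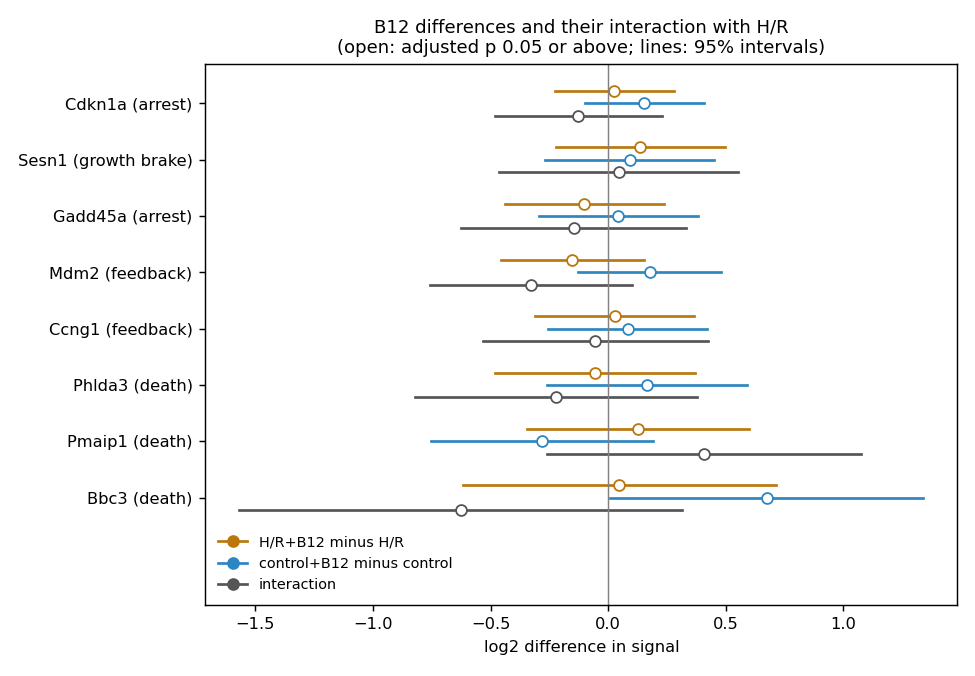
Log2 differences of the 8 genes for H/R+B12 minus H/R, control+B12 minus control and the interaction (horizontal axis), with 95% intervals of the limma fit. All points are open, since none passed an adjusted p of 0.05. The interval of Cdkn1a for H/R+B12 minus H/R runs from -0.23 to 0.28.

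The intervals give the range of B12 differences that the spread between these samples allows. Between H/R+B12 and H/R cells Cdkn1a differed by 0.03 ± 0.12 (95% interval -0.23 to 0.28), Sesn1 by 0.14 ± 0.17 (-0.22 to 0.49) and Phlda3 by -0.06 ± 0.20 (-0.48 to 0.37). For these genes each interval is narrower than that gene's own difference with H/R. For Mdm2 the interval, -0.46 to 0.15, is wider than its rise of 0.52 without B12. Those of Pmaip1 (-0.34 to 0.60) and Bbc3 (-0.62 to 0.71) are wider still. Between control+B12 and control cells Cdkn1a, Sesn1 and Phlda3 differed by 0.15 ± 0.12, 0.09 ± 0.17 and 0.17 ± 0.20. The interactions were -0.13 ± 0.17 for Cdkn1a, 0.04 ± 0.24 for Sesn1 and -0.22 ± 0.28 for Phlda3, all with a limma adjusted p of 0.987 or above. Among the 34 further targets Sesn2 had the smallest p in H/R+B12 against H/R, at 0.97 ± 0.32 with all 4 H/R+B12 arrays above all 4 H/R arrays, and did not pass (limma adjusted p = 1). Among the same 34 the smallest interaction p-values were those of Bid (-0.52 ± 0.20) and Sesn2 (1.17 ± 0.45), both with a limma adjusted p of 0.972.

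For 1 gene of each role the most similar profiles over the 16 arrays were looked up among 9748 brighter named genes, by Pearson r, as a description. Those most like Cdkn1a were P4ha2 (r = 0.993), Jund (0.992), Kmt2e (0.991), Cxcl16 (0.990) and Gcnt2 (0.990). The arrays form separate clusters with and without H/R for Cdkn1a, so any gene with a steady H/R difference reaches a high r. Those most like Mdm2 were Atf2 (0.890), Ezr (0.876), Zc3h15 (0.858), Tbc1d25 (0.857) and Baiap2l1 (0.856). For Bbc3, at background, the highest values were lower, with Smap1 (0.723), Stk4 (0.705), Rab2b (0.670), Mboat7 (0.667) and Gaa (0.658).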

How the data were processed

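The deposited values are log2 signal, 1 value for each probe set on each array, which the authors made by RMA in Affymetrix Expression Console and compared in Transcriptome Analysis Console, per the submitters' processing notes (versions not given in the sources used here). RMA pulls array distributions together, so differences are relative to the array as a whole. No further normalization was applied. The 6640 control features were left out of testing. All 16 arrays were fitted together as 4 group means with limma 3.58.1 in R 4.3.3 (empirical Bayes, total degrees of freedom 16.2). Two-sided p-values were adjusted over 22206 probe sets within each of 5 comparisons (Benjamini-Hochberg, threshold 0.05). The fit was tested on simulated data. Errors are the fit's SE unless marked SD.

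Where a gene has several probe sets the one with the highest mean stands for it. The genes and lists were chosen with earlier results of these data known. Named were all members, up to 4 genes of each pathway list with the smallest p in H/R against control, and 5 similar profiles for Cdkn1a, Mdm2 and Bbc3. Symbols follow the platform annotation, and the members' gene IDs gave the same symbols in RefSeq (GRCm38.p6). Depth does not apply to arrays, and their number limits the precision. The 24 alternatives fixed at the start were a replicate block, separate fits for each comparison's own samples, robust variances with a trend on signal, weights for arrays, the dimmest 25% left out, quantile normalization, centred arrays, no moderation and each array left out. The average over both B12 states was added after seeing the data. Plots used matplotlib 3.10.9.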

Additional observations from a re-analysis of the deposited data

How the results depend on the processing

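The calls of Cdkn1a, Sesn1 and Phlda3 held their direction and their side of the threshold under all 24 alternatives. This was so for H/R against control and for H/R+B12 against control+B12. The average over both B12 states, a different contrast, gave these calls too. Over the 24 alternatives, Cdkn1a ran from 1.57 to 1.70 and from 1.45 to 1.58. Sesn1 ran from -1.11 to -0.83 and from -1.05 to -0.88, and Phlda3 from 1.10 to 1.32 and from 0.86 to 1.09. The 968 recomputed member values include that average. Of these 2 changed their call, both for Mdm2 without B12 (0.49 without control replicate 3 and 0.46 without H/R replicate 1), and the cause was not tested. Another 35 values that were called in no setting changed sign. The count of members called stayed at 3 to 4 without B12, at 3 with B12 and at 0 in the B12 comparisons and the interaction. With the replicate number as a block the counts were 4, 3, 0, 0 and 0. Deviations from group means correlated at -0.072 to 0.079 over 24 same-numbered pairs (median 0.005). Over 72 pairs with different numbers they correlated at -0.079 to 0.07 (median -0.003). Of 16 arrays 7 correlated best with their own number. These values do not settle whether the numbers mark pairs or batches. Over all probe sets 3315 to 4517 were called without B12 and 3411 to 4725 with B12. In the B12 comparisons 1 probe set was called in H/R+B12 against H/R without H/R replicate 1, and 1 in control+B12 against control without control replicate 2, against 0 with all arrays. Signal near the negative controls limits Bbc3, Sfn, Plk3, Sesn2 and Ppp1r13l, and Trp53 and Bax were not analysed here. No member had a 2nd probe set to compare.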
